A study of Mus musculus with 83 samples.

Results

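Very long genes were followed here through the Pol II occupancy of mouse embryonic stem cells (mESCs). The set was chosen by length alone: a gene entered when its annotated length exceeded 300 kb and it was present in every count table. Of 27752 genes in the tables, 576 did, out of 611 genes of that length in the larger table of the B8 cells. Their lengths ran from 300256 to 4434882 bp with a median of 449143 bp. They were compared with the 9760 genes of 10 to 50 kb.

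The assay was CUT&Tag: an antibody to RPB1, the largest Pol II subunit, brings a transposase to the places where the polymerase sits, and the fragments it cuts out were counted over each whole gene. Every line descends from JM8.N4 mESCs that carry GFP-tagged H3.3. C64 cells have both copies of TBP, the TATA-box binding protein, fused to a degron (mAID), so that indole-3-acetic acid (IAA) triggers its degradation, which leaves part of the protein. They also carry a HaloTag on RPB1, the subunit the antibody binds. B8 cells are a single clone of C64 with Tbpl1 knocked out, the gene that encodes TRF2, a relative of TBP, and share these tags. The 24 libraries covered control C64 in sequencing runs 2 and 3 (2 libraries each), C64 with IAA for 6 h in run 2 and for 16 h in run 3 (2 each), C64 at 42 °C for 30 min without IAA or at the end of a 6 h IAA treatment in run 2 (2 each), C64 with retinoic acid (RA) for 16 h without or with IAA for 16 h in run 3 (2 each), and B8 without or with IAA for 6 h in runs 6 and 8 (2 of each in either run). The labels call the controls untreated, and the study's methods give DMSO as the control for IAA. In the tables, run 2 libraries fall into sets named here a and b, run 3 libraries are 1 and 2, B8 libraries of run 6 are 1 and 2, and those of run 8 are 2 and 3.

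Elongation proceeds at a few kilobases a minute, so a Pol II molecule that enters a gene of this length can need hours to reach its end. In a short treatment, the far part of such a gene can therefore still carry polymerases that started before the treatment. Very long genes are mostly large because of their introns. Many encode synaptic adhesion molecules, ion channels and their scaffolds, and these genes are largely silent in mESCs, while others encode transcription factors, cytoskeletal linkers and enzymes used in most cells. Several lie at common fragile sites, where replication and transcription of the same long unit can collide. TBP is the subunit of TFIID that contacts the TATA box near the start of a gene.

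The starts of 4 of these genes are shown because their changes recur below. Cntnap2 and Macf1 passed the threshold in 2 comparisons each, more than any other member, Vti1a passed in 1 and had a large change under heat shock, and Rarb is a classical RA target that was added after its values were seen. Each window runs from 250 bases before to 50 bases after a RefSeq start (GRCm38.p6). Cntnap2 lies at chr6:45059811-45060110, plus strand, Macf1 at chr4:123684311-123684610, minus strand, Vti1a at chr19:55315807-55316106, plus strand, and Rarb at chr14:16575427-16575726, minus strand. Capitals mark TATAAA on either strand, of which these windows hold none, and in Rarb both copies of GTTCA in a direct repeat with 6 bases between them.
Cntnap2: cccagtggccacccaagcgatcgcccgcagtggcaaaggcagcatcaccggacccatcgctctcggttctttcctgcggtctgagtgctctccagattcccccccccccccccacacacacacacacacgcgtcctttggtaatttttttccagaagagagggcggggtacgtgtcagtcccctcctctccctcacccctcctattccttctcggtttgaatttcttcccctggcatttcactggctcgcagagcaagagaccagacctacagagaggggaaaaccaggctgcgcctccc
Macf1: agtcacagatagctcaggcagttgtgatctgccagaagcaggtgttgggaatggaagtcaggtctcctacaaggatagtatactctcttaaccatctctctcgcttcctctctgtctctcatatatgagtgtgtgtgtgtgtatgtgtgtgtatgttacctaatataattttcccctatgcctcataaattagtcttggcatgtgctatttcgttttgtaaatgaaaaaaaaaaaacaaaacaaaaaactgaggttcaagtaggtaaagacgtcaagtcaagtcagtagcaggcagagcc
Vti1a: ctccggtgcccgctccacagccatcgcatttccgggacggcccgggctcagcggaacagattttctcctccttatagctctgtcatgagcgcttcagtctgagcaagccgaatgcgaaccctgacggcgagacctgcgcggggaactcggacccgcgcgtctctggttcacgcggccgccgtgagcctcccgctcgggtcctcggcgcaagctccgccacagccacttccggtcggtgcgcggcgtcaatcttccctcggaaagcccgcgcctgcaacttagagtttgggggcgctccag
Rarb: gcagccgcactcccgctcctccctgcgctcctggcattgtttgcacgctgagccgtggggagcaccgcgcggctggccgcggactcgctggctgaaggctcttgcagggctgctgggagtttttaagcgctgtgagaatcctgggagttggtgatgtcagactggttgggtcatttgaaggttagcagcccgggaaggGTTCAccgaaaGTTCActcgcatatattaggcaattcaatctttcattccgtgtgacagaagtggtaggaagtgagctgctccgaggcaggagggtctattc
RefSeq starts were at hand for 437 of the 576 genes. TATAAA occurred on the sense strand in 4.65% of their 645 windows and in 8.32% of all 32851 windows of the table, and on either strand in 8.22% and 13.6%. The GTTCA repeat was present in 2 of the 645 windows (0.31%) and in 25 of all (0.0761%). In Rarb it began 52 bases before the start. That window belongs to an inner start, 243680 bases from the outer end of the gene in the tables, whereas the Macf1 window sits at the outer end itself and those of Cntnap2 and Vti1a begin their genes within 704 and 238 bases of it. Nfib and Wwox were picked by the same rule and had no entry, and the entry of Snhg14 lies 474418 bases inside its annotated interval and is not printed. On the TATA-gene list deposited with the study, 150 of the 576 long genes (26%) and 20.8% of the genes of 10 to 50 kb were present. That list was built by other criteria than these letters.

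Most of the very long genes carried little Pol II. In the 4 C64 control libraries their median level was 0.146 RPKM (reads per kilobase of gene and per 1e6 reads), against 0.92 RPKM for genes of 10 to 50 kb and 0.078 RPKM for the 1408 olfactory receptor (Olfr) genes, which are silent in these cells and served as the background. The 95th percentile of the Olfr genes, 0.407 RPKM, was exceeded by 113 of the 576 (19.6%) and by 67.9% of the genes of 10 to 50 kb. For 305 of the long genes the level was below 2 times the Olfr median. The C64 controls that set this level also enter the changes from control in C64, B8 against C64 and the fit over all contexts. A split by level is therefore not independent of those changes. The level fell with length even inside the set, from a median of 0.208 RPKM in the 218 genes of 300 to 400 kb to 0.156 RPKM in the 129 of 400 to 500 kb, 0.136 RPKM in the 123 of 500 to 750 kb, 0.111 RPKM in the 47 of 750 to 1000 kb and 0.0789 RPKM in the 59 longer ones.

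**Figure D1:**
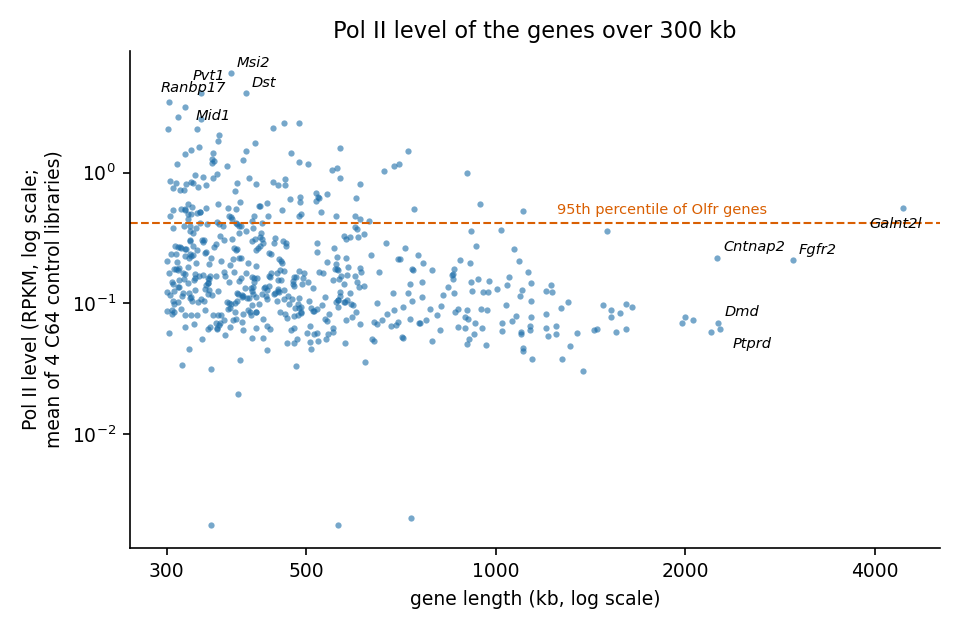
Each point is 1 of the 576 genes over 300 kb, placed by its length in kb (log scale) and its mean RPKM in the 4 C64 control libraries (log scale), and the dashed line is the 95th percentile of the Olfr genes at 0.407 RPKM. The highest genes, led by Msi2 at 5.74 RPKM, are all under 500 kb, and 2 of the 59 genes over 1000 kb sit above the line (the 3 lowest points are the genes with almost no reads, those at 0 drawn near the bottom of the axis).

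At the top of the range stood Msi2 (chr11:88339382-88718513), which encodes an RNA-binding protein of stem and progenitor cells, with 5.74 RPKM. It was followed by Pvt1, a long noncoding RNA gene beside Myc, with 4.08 RPKM, Dst, a linker of cytoskeletal filaments, with 4.06 RPKM, Ranbp17, a nuclear transport receptor, with 3.45 RPKM, and Mid1, an X-linked ubiquitin ligase of microtubules, with 3.17 RPKM. Mad1l1 (spindle checkpoint), Rere (corepressor), Diaph3 (formin), Snd1 (RNA-binding nuclease) and Agap1 (Arf GTPase-activating protein) completed the 10 highest, at 2.67, 2.57, 2.41, 2.4 and 2.18 RPKM. By function, the lists of maintenance genes and of transcription, chromatin and RNA factors were the highest, with median levels of 0.323 and 0.237 RPKM and 17 of 38 and 14 of 47 genes above the Olfr limit. Synaptic and neural adhesion genes were the lowest, at 0.071 RPKM and 3 of 56. Genes at common fragile sites (median 0.0966 RPKM) had 4 of 23 above it, ion channels and receptors 3 of 51, kinases, phosphatases and second messenger enzymes 11 of 53, scaffold and polarity genes 5 of 22, and matrix, glycan and membrane cytoskeleton genes 5 of 38.

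The 5 longest intervals were Galnt2l at 4435 kb, Fgfr2 at 2961 kb, Ptprd at 2271 kb, Dmd at 2257 kb and Cntnap2 at 2245 kb. Galnt2l (chr8:119910841-124345722) overlaps 139 other genes of the tables and Fgfr2 (chr7:130162451-133123350) 38, so their counts come only from stretches that no other gene shares, and both intervals far exceed the familiar extent of such genes. Overlap with another gene was common in the set, at 292 of 576 (50.7%) against 29.7% of the genes of 10 to 50 kb. On both sides of the length limit stood Kcnq3 (300256 bp, 0.122 RPKM) and Pam (300533 bp, 0.209 RPKM) inside, and Jazf1 (299835 bp, 0.391 RPKM) and Akap13 (299076 bp, 0.947 RPKM) outside. Their log2 fold changes under heat shock were 0.14, -0.08, 0.22 and -0.07 in that order.

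Assigned reads numbered 3854622 to 5056322 per C64 library, 900651 to 1157308 in B8 run 6 and 2330887 to 2523832 in B8 run 8. The targeted gene Tbpl1 was at 0 to 4.37 CPM (reads per 1e6 reads) in the B8 libraries, against 6.24 to 15.9 CPM in those of C64. Of 10 markers of embryonic stem cells, 9 lay above the Olfr limit, and of 8 neuronal markers 3 did (Rbfox3, Syp and Stmn2). Sox2 and Tubb3 had 0 reads in every library, but they lie wholly inside the long genes Sox2ot and Galnt2l, and reads over 2 genes were not assigned, so their levels were not measured. The long genes took 7.76 to 10.96% of the reads in C64 libraries and 8.85 to 9.77% in B8, except for B8 control 2 of run 6, where they took 14.1%. That library stood apart, and the main counts and medians that rest on it are also given without it. Olfr genes held 0.263% of its reads and 0.0721 to 0.164% of those of the other libraries. A lower count per gene can come from fewer cells or from less Pol II per cell, which cannot be told apart here.

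To place the whole set in each library, every gene was centred on its mean over the 24 libraries (log2 CPM), and the median of the genes of 10 to 50 kb was subtracted from that of the long genes. This relative position lay at -0.29 and -0.16 in the C64 controls of run 2 and at -0.29 and 0.18 in those of run 3, so the 2 control libraries of run 3 differed by more than any comparison within C64 moved the set. In the RA libraries it was -0.19 and 0.46 and in RA with IAA -0.46 and 0.53. The second library was the higher in each of the 4 pairs of run 3. B8 controls had 0.09 and 1 in run 6 and -0.18 and -0.15 in run 8.

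**Figure D2:**
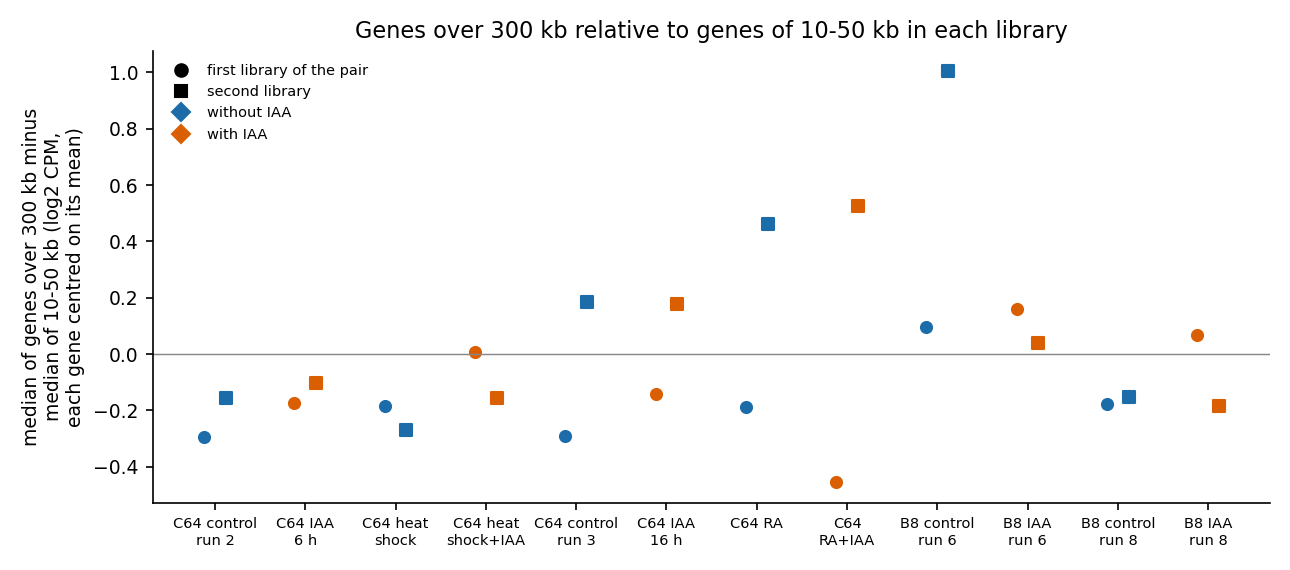
The relative position of the genes over 300 kb (median of the set minus median of the genes of 10 to 50 kb, log2 CPM, each gene centred on its mean over all libraries) is drawn for each of the 24 libraries, with circles and squares for the first and second library of a pair and orange for IAA. B8 control 2 of run 6 lies highest at 1, and in run 3 the squares lie above the circles in all 4 groups, up to 0.53 against -0.46 in RA with IAA.

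Of the 576 genes, 573 passed the filter on low counts in the comparisons within C64 and between lines, and 572 in B8 with IAA. Gse1, Schip1 and Iqschfp, at no more than 0, 1 and 19 reads in any library, were never tested. The filter worked on reads per gene, so a silent gene of this length passed where a short one did not: between 6415 and 8185 of the 9760 genes of 10 to 50 kb passed. In all comparisons below, log2 fold changes and their standard errors come from edgeR's quasi-likelihood fit over all genes tested, and the adjusted p from the same test. An adjusted p given with a block comes from the paired fit. The study calls the libraries of a group biological replicates, while the labels do not say whether they were separate cultures, and the p-values measure the spread between these libraries.

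IAA for 6 h in C64 asked whether lowering TBP changed Pol II on these genes, and no member passed the threshold (0 of 573 higher, 0 lower). Among all 16157 genes tested, 0% were called higher and 0.0433% lower, and at an unadjusted p under 0.05 there were 2 long genes (2.19% of all genes). The likelihood-ratio test and DESeq2 called 0 (0.179% and 0.167% of all genes). Their median log2 fold change was 0.07 against -0.01 for genes of 10 to 50 kb, a difference of 0.08. The relative positions of the libraries overlapped, at -0.29 and -0.16 in the controls and -0.17 and -0.1 with IAA. Il1rapl1, a synaptic adhesion receptor, had 37.9 and 34.8 CPM without and 43.7 and 54.6 CPM with IAA (log2 fold change 0.44 ± 0.19, SE, adjusted p = 1). Col4a6, a basement membrane collagen, had 79.1 and 90.5 CPM without and 67.6 and 65 CPM with IAA (-0.35 ± 0.16, adjusted p = 1). Nlgn1 and Pcsk5 came next among the higher genes at 0.37 and 0.39, and Zfp407 and Chst9 among the lower ones at -0.25 and -0.36, all with an adjusted p of 1. With the column sets as a block, 0 long genes were called beside 0.111% of all genes higher and 1.08% lower.

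IAA for 16 h likewise left 0 of 573 past the threshold, with 0% of 16349 genes called in either direction. At an unadjusted p under 0.05 there were 2, both lower (1.95% of all genes), and the likelihood-ratio test and DESeq2 called 0 (0.0122% and 0.0245%). The median log2 fold change was 0.08 against 0.02 for genes of 10 to 50 kb. Because libraries of run 3 with the same number deviated together, the pairing was fitted too. With that block 5 rose and 5 fell (0.873% each, beside 0.734% and 1.43% of all genes). Macf1, which crosslinks actin and microtubules, had 711 and 595 CPM without and 471 and 482 CPM with IAA, and the groups did not overlap (-0.45 ± 0.11 with the block, adjusted p = 0.00695, and 0.999 without it). Fhod3, a formin, Gpc3, a glypican, and Tenm4, a teneurin, were lower by 0.48, 0.42 and 0.36 on the log2 scale with the block. Galnt18, Il1rapl1, Cadm2, Myo3a and Pcdh9 were the 5 that rose there, by 0.59, 0.52, 0.62, 0.58 and 0.38, and none of the 5 was above the Olfr limit, against 4 of the 5 that fell. The run 3 controls enter both that level and this change. The 30 Olfr genes that passed the filter, of 1408, had a median change of 0.14.

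Heat shock lasted 30 min, less than Pol II needs to cross most of these genes. A single long gene passed the threshold, and it fell: 1 of 573, and 0 rose, where 1.57% of the 16332 genes tested rose and 1.46% fell. This gene was Cntnap2, a neurexin family adhesion protein and the fifth longest of the set (chr6:45059357-47304213). The window around its RefSeq start is printed above. It had 548 and 467 CPM in the controls and 185 and 228 CPM after heat shock. Both heated libraries were far below both controls, and the fitted change was -1.28 ± 0.24 (SE, n = 2 and 2, adjusted p = 0.00786). In cells heated at the end of the IAA treatment its values were 211 and 261 CPM, against 613 and 437 CPM with IAA alone (-1.16 ± 0.29, adjusted p = 0.0614, and 0.000154 with the block). These are separate libraries from the first comparison. Under IAA without heat shock it differed little, by 0.06 at 6 h and 0.15 at 16 h, both with an adjusted p of 0.999 or more.

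With the column sets of run 2 as a block, 3 long genes rose and 5 fell under heat shock (0.524% and 0.873%, beside 3.98% and 4.43% of all genes). Sntg1, a syntrophin scaffold, had 157 and 153 CPM in the controls and 278 and 250 CPM after heat shock (0.78 ± 0.22, adjusted p = 0.0691, and 0.0119 with the block). Hivep3, a zinc finger factor, had 67 and 82.2 CPM in the controls and 120 and 126 CPM after heat shock (0.74 ± 0.22, adjusted p = 0.0896, and 0.0176 with the block). Dlc1 had 255 and 283 CPM against 503 and 378 CPM (0.73 ± 0.24, adjusted p = 0.127, and 0.0352 with the block). In each of the 3 both heated libraries lay above both controls. Cntn6, a contactin, Dnah7c, an axonemal dynein chain, Vti1a, a SNARE protein, and the cation channel Trpc5 fell there by 1.03, 0.69, 0.72 and 0.77 on the log2 scale. Of those 8 genes, all 8 had the same sign in heat shock with IAA, where 352 of the 573 long genes were above 0 and 221 below. Without the block, the count of long genes called moved in both directions when 1 library was left out. Such fits leave a lone library in a group, so their counts are not read here.

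Across the set, the median change under heat shock was -0.01 against 0.04 for genes of 10 to 50 kb, a difference of -0.05 that lay within the spread of the libraries. Long genes above the Olfr limit moved further than that median. Cntnap2, at 0.0825 to 0.328 RPKM over the 24 libraries, was not among them. Of the 113 long genes above the Olfr limit, 90 had a value below 0 and 23 above, with a median of -0.15, while the 6621 genes of 10 to 50 kb above the same limit had a median of 0.01. In heat shock with IAA the corresponding values were 92 and 21 of 113, -0.18 and -0.03. Above 0.5 RPKM the medians were -0.17 for 91 long genes and 0.01 for 6289 genes of 10 to 50 kb. Averaged over the list, with Sox2 counted as 0, the stem cell markers were at 4.87 to 5.07 RPKM in the heated libraries. Their controls had 2.73 to 2.94 RPKM, and the part of the markers in these values was not tested. No test was made of these medians, the members above the limit not being replicates of the treatment. By list, the lowest median belonged to maintenance genes, with -0.12 and 30 of 38 genes below 0. Transcription, chromatin and RNA factors followed with -0.08 and 29 of 47. The highest were ion channels and receptors, with 0.1 and 21 of 51 below 0. Medians over all long genes and all tested genes were -0.01 and 0.03, and of the list genes Cntnap2 alone passed.

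Heat shock at the end of the IAA treatment called 0 of 573 long genes, where 0.698% of the 16486 genes tested rose and 0.704% fell. The likelihood-ratio test and DESeq2 each called 1 lower (4.64% and 2.71% of all genes in either direction), and 13 long genes had an unadjusted p under 0.05 (16.6% of all genes). With the block, Cntnap2 and Trpc5 fell and none rose (0.349%, beside 3.81% and 5.95% of all genes higher and lower). Without it, the count moved when 1 library was left out. Besides these, Grik4, a kainate receptor subunit, had a log2 fold change of 0.6 ± 0.23 and Myo3a, an unconventional myosin, 0.59 ± 0.24, while Wwox, a fragile site oxidoreductase, had -0.65 ± 0.26 and Dock1, a Rac activator, -0.67 ± 0.28, with adjusted p between 0.213 and 0.241. The test of whether the heat shock change differed with and without IAA called 0 of 573 long genes and 0 of 16961 genes. At an unadjusted p under 0.05 it gave 2 long genes, beside 121 of the 16961 genes, and by the likelihood-ratio test 0 genes of any length.

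IAA among heated cells was the 1 comparison within C64 in which the 2 groups did not overlap in the relative position of the set: -0.19 and -0.27 after heat shock alone, 0.01 and -0.16 after heat shock with IAA. The median change was 0.16 against -0.03 for genes of 10 to 50 kb, and 475 of 573 long genes were above 0. The difference of 0.19 was 0.08 without library a of heat shock with IAA and 0.3 without library b. Among the 113 genes above the Olfr limit the median was -0.01, and in the 460 others it was 0.21. The 38 Olfr genes that passed the filter had a median of 0.15. Over all 1408 Olfr genes, the share of reads was 0.107 and 0.0902% without IAA and 0.135 and 0.0993% with it. The part of this background in the shift was not tested. No single long gene passed (0 of 573; 0% of 16628 genes in either direction; 4 long genes and 0.962% of all genes at an unadjusted p under 0.05, and 0 genes of any length by the likelihood-ratio test and DESeq2). With the block Esr1, the estrogen receptor, rose from 46.1 and 43 to 70.9 and 68.9 CPM (0.67 ± 0.17, adjusted p = 0.0232), where 0.0902% of all genes rose and 0.559% fell.

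**Figure D3:**
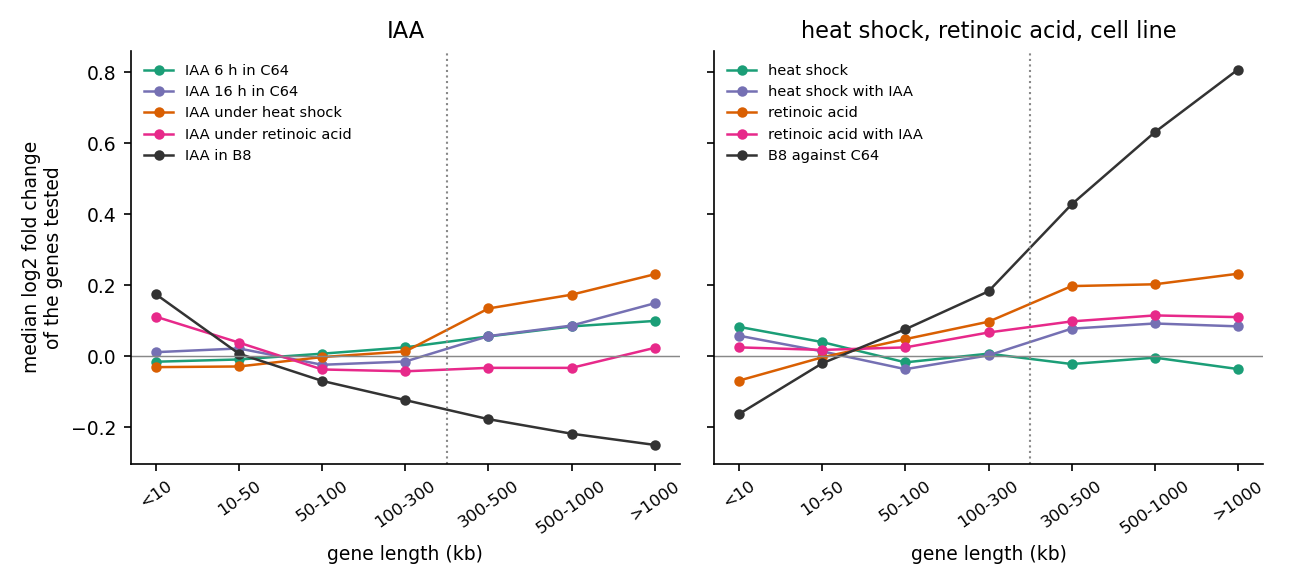
The median log2 fold change of the genes tested is drawn by length class (kb) for each IAA comparison on the left and for heat shock, RA and the comparison of the cell lines on the right, with the classes over 300 kb to the right of the dotted line. Genes over 1000 kb reach 0.81 in B8 against C64 and -0.25 with IAA in B8, which become 0.21 and 0.16 without B8 control 2 of run 6 (not drawn), whereas heat shock stays between -0.04 and 0.08 in all classes.

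RA starts differentiation of mESCs through the retinoic acid receptors. With the libraries paired by number, genes that rose included the transcription factor genes Zbtb7c, Foxp1 and Zfhx3, and genes that fell included Bnc2, Enox1 and Nav2. Without the pairing 0 of 573 long genes passed, as did 0.0122% of 16350 genes in the higher and 0.00612% in the lower direction. There were 34 at an unadjusted p under 0.05 (5.93%, near the 6.17% of all genes), 9 by the likelihood-ratio test and 10 by DESeq2 (0.807% and 0.532% of all genes). In run 3 the libraries with the same number deviated together, with correlations from 0.416 to 0.623 between groups. Fitted with the replicate number as a block, 94 long genes rose and 27 fell, which is 16.4% and 4.71% of the long genes beside 4.75% and 6.64% of all genes and 3.43% and 5.9% of the genes of 10 to 50 kb. In the class of 100 to 300 kb, 10.5% rose and 8.6% fell. A block of 2 pairs leaves 1 degree of freedom per gene, and the spread is then almost wholly that shared over genes. DESeq2 with the same block called 18 higher and 13 lower, beside 0.771% and 1.82% of all genes.

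Of the 94 that rose with the block, 10 lay above the Olfr limit, against 22 of the 27 that fell. Most of the rising genes thus lay below that limit, the 95th percentile of the Olfr genes. The level came in part from the run 3 controls of this same comparison. A low control value favours both a low level and a rise, so the split is no independent result. Zbtb7c, a BTB zinc finger factor, rose from 168 and 211 to 482 and 506 CPM (1.39 ± 0.22 and not past the threshold without the block, adjusted p = 2.62e-32 with it). Foxp1, a forkhead factor, rose from 299 and 226 to 715 and 500 CPM (1.21 ± 0.26), and Zfhx3, a homeobox zinc finger factor, from 444 and 349 to 1076 and 654 CPM (1.13 ± 0.29). All RA libraries lay above all controls for these 3 genes. Rarb, the retinoic acid receptor beta, went from 42.6 and 48.9 to 82.5 and 93.7 CPM (0.95 ± 0.22, adjusted p = 0.417, and 9.92e-09 with the block). In RA with IAA its values were 98.5 and 102 CPM against 37.2 and 50.3 CPM. Its level over the whole gene in the C64 controls, 0.104 RPKM, was below the Olfr limit.

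The genes that fell were among the more occupied ones. Bnc2, a basonuclin zinc finger protein, went from 767 and 460 CPM to 161 and 121 CPM (-2.12 ± 0.29, adjusted p = 0.216 without and 2.78e-69 with the block). Enox1, a cell surface oxidase, went from 460 and 323 to 145 and 155 CPM (-1.38 ± 0.24), and Nav2, a neuron navigator, from 1112 and 776 to 378 and 376 CPM (-1.32 ± 0.25). Trpc5 went from 153 and 144 to 68.6 and 69.9 CPM (-1.1 ± 0.2 and not past the threshold without the block, adjusted p = 3.5e-15 with it). Klf12, a Krüppel-like repressor, Pvt1, Elmo1, a partner of Dock1 in Rac activation, and Pakap, a name that joins several intervals, had -0.95, -0.95, -0.88 and -0.98. In each of these genes every RA library lay below every control library.

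**Figure D4:**
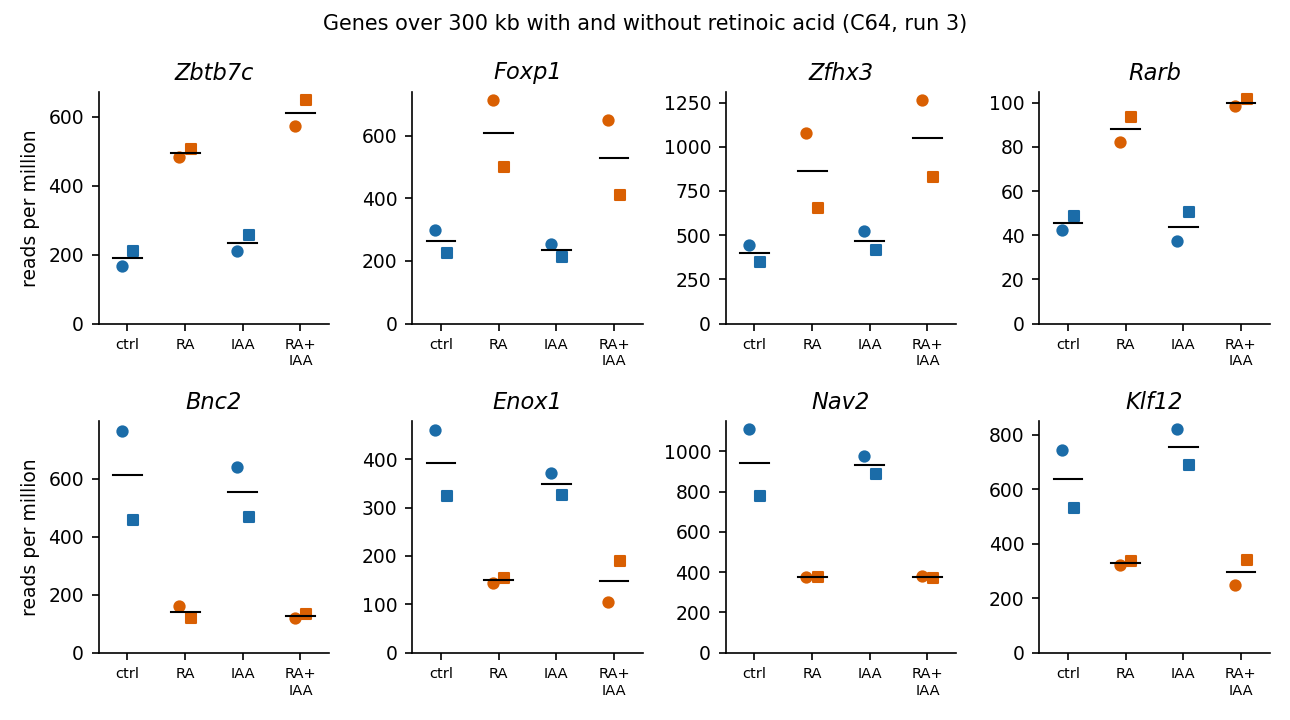
CPM of 8 genes over 300 kb in the 8 libraries of run 3 is drawn for control, RA, IAA and RA with IAA, with circles and squares for libraries 1 and 2, orange for RA and bars for the mean of 2 libraries. Zbtb7c, Foxp1, Zfhx3 and Rarb are higher in all 4 RA libraries than in the 4 others, and Bnc2, Enox1, Nav2 and Klf12 are lower.

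RA given together with IAA was measured in other libraries throughout. Of the 94 genes that had risen with the block, 87 were above 0 there, as were 403 of the 573 long genes, and of the 27 that had fallen, 27 were below 0, as were 170 of 573. Without the block 0 of 573 passed, with 0% of 16395 genes in either direction, 24 at an unadjusted p under 0.05 (3.84% of all genes), 9 by the likelihood-ratio test and 10 by DESeq2 (0.439% and 0.409%). Unblocked, the count moved when 1 library was left out. The block called 8 higher and 10 lower (1.4% and 1.75%, beside 0.75% and 1.07% of all genes). Among those 8 were Zbtb7c, Rarb, Foxp1, Zfhx3, Sorcs2, Tenm3 and Thsd4, and all 8 held their sign in RA without IAA, as did the 10 that fell. Klf12 went from 820 and 687 to 249 and 340 CPM (-1.33 ± 0.24, adjusted p = 0.000137 with the block). Fbxl17 and Arl15 were the weakest of the 10, at -0.7 and -0.65.

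Over the set, the median change under RA was 0.2 while that of the genes of 10 to 50 kb was close to 0, and with the pairing it was 0.19. Within the pairs the relative position of the set was higher with RA both times, at -0.19 against -0.29 and at 0.46 against 0.18. The unpaired difference was -0.16 without RA library 2 and 0.5 without RA library 1, and leaving either out breaks a pair. At matched levels the 2 length classes lay closer. Between 0.1 and 0.2 RPKM the medians were 0.24 for 180 long genes and 0.17 for 328 of 10 to 50 kb, and above 0.5 RPKM they were -0.02 and -0.03. Olfr genes took 0.0783 and 0.152% of the reads with RA and 0.0839 and 0.125% in the controls. Only 31 of the 1408 passed the low-count filter, and the median change of those was 0.03. The marker lists were averaged with Sox2 and Tubb3 counted as 0. Stem cell markers were at 1.31 to 1.66 RPKM with RA and 2.28 to 2.97 RPKM in the controls. The neuronal ones were at 0.217 to 0.313 and 0.352 to 0.355 RPKM. The neuronal genes did not move together. From all C64 controls to RA, Stmn2 went from 1.371 to 0.368 RPKM and Syp from 0.9675 to 0.6075 RPKM. Rbfox3 (0.5584 to 0.5411), Snap25 (0.1949 to 0.1668) and Dcx (0.04528 to 0.03566) were also lower. Map2 (0.2067 to 0.2752) and Syt1 (0.08767 to 0.1231) were higher. Rbfox3 and Syt1 are themselves among the long genes. The part of these values in the shift was not tested. By list, 14 of 47 transcription, chromatin and RNA factors rose with the block and 1 fell, and 12 of 56 synaptic and neural adhesion genes rose and 1 fell. Kinase, phosphatase and second messenger genes had 8 and 3 of 53, ion channels and receptors 7 and 2 of 51, scaffold and polarity genes 5 and 0 of 22, matrix, glycan and membrane cytoskeleton genes 5 and 2 of 38, maintenance genes 5 and 2 of 38, and fragile site genes 2 and 0 of 23. List medians ran from 0.13 for the kinase list to 0.27 for the synaptic list, beside 0.2 for all long genes and 0.02 for all genes tested.

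With IAA added to RA, 0 of 573 long genes passed and 0 had an unadjusted p under 0.05 (0.633% of all genes), where 0% of 16439 genes were called in either direction. The likelihood-ratio test and DESeq2 called 0 genes of any length. The median was -0.02 against 0.04 for genes of 10 to 50 kb. With the block 2 rose and 5 fell (0.349% and 0.873%, beside 0.401% and 0.639% of all genes). The 5 were Snd1 (-0.47), Camk1d (-0.39), Ptprk (-0.39), Dock1 (-0.38) and Macf1 (-0.35), and those that rose were Zbtb7c (0.32) and Zfhx3 (0.31).

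B8 cells lack TRF2, and IAA lowers TBP on top of it. Here 28 long genes fell and 3 rose of 572 (4.9% and 0.524%, beside 3.36% and 2.44% of 13219 genes), in a fit with the run as a term. Of the 1904 genes of 100 to 300 kb tested, 5.41% fell and 1.21% rose, so the share that fell was not particular to the longest genes. Among the long genes, Mid1 (chrX:169685199-170005736) had the smallest p. Its control values were 795 and 619 CPM in run 6 and 941 and 817 CPM in run 8, and with IAA they were 374 and 332 CPM and 375 and 377 CPM. All 4 IAA libraries lay below all 4 controls, and the change was -1.12 ± 0.12 (SE, n = 4 and 4, adjusted p = 5.04e-05). In C64, Mid1 changed by 0.07 after 6 h and by 0.07 after 16 h. Tested directly, the IAA change differed between B8 and C64 by -1.18 ± 0.2 (adjusted p = 0.023). It was the single long gene of 573 in that test, in which 14 of 15338 genes passed, and 0 long genes passed when any library but B8 control 2 of run 6 was left out. Without that library 8 passed, and the share of all genes called in that fit is not given here.

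Enox1 had the largest fall, by 1.25 on the log2 scale (adjusted p = 0.000147). Foxp1 went from 172 and 194 to 93 and 112 CPM in run 6 and from 578 and 523 to 272 and 272 CPM in run 8 (-0.94 ± 0.12, adjusted p = 0.000246). Bnc2 went from 380 and 333 to 228 and 215 CPM in run 6 and from 1273 and 1207 to 571 and 559 CPM in run 8 (-0.93 ± 0.12, adjusted p = 0.000299). Within each run both IAA libraries were lower, while the runs differed in level by more than the treatment. Zfp407, a zinc finger protein, Nav2, Nfib, a nuclear factor I protein, and Msi2 fell by 0.87, 0.8, 0.59 and 0.62. Cntnap2 went from 519 and 736 to 403 and 328 CPM in run 6 and from 482 and 436 to 298 and 241 CPM in run 8 (-0.78 ± 0.14, adjusted p = 0.00431), with no overlap between the groups. Vti1a and Macf1 fell by 0.39 and 0.48, Pvt1 by 0.77 and Wwox by 0.53.

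The 3 that rose were Itpr1, Snhg14 and Mad1l1. Itpr1, the calcium release channel of the endoplasmic reticulum, went from 509 and 409 to 850 and 847 CPM in run 6 and from 646 and 604 to 956 and 1108 CPM in run 8 (0.8 ± 0.11, adjusted p = 0.000727). Snhg14, a long noncoding RNA that hosts small nucleolar RNAs and runs antisense to Ube3a, went from 204 and 297 to 307 and 328 CPM in run 6 and from 244 and 217 to 588 and 602 CPM in run 8 (0.88 ± 0.19, adjusted p = 0.0154). Counting took no account of strand, and reads over several genes were not assigned. Any stretch that Snhg14 shares with a gene on the other strand thus added nothing to its count. Mad1l1 changed by 0.44 ± 0.12 (adjusted p = 0.045). By list, 5 of 47 transcription, chromatin and RNA factors fell, 3 of 53 kinase, phosphatase and second messenger genes, 2 of 38 maintenance genes, and 1 each of the synaptic, channel, matrix and fragile site lists, while scaffold and polarity genes had 0, and Itpr1 and Mad1l1 were the 1 each of the channel and maintenance lists that rose. Their medians lay between -0.28 (synaptic) and -0.12 (maintenance), beside -0.19 for all long genes and -0.02 for all genes tested. Without B8 control 2 of run 6 they lay above 0, between 0.01 (maintenance) and 0.17 (synaptic), beside 0.09 and 0.02.

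The runs were then read apart, since B8 control 2 of run 6 stood alone. In run 6 the median change of the long genes was -0.59, with 513 of 572 below 0, and 0 passed, where 0.0689% of 11608 genes rose and 0.0775% fell. In run 8 it was 0.15, with 168 of 572 below 0, and 63 rose and 66 fell, where 7.54% of 13535 genes rose and 12.8% fell. Of the 63 that rose in run 8 alone, 5 were above 0 in run 6, and of the 66 that fell, 51 were below 0. Without control 2 of run 6, 28 rose and 47 fell, where 5.19% of 14644 genes rose and 9.1% fell. The median difference from genes of 10 to 50 kb was then 0.07 in place of -0.2. With no run term fewer long genes passed than with it, and the share of all genes in that fit is not given here. Of the 28 that fell, 15 were below 0 after 6 h of IAA in C64 and 17 after 16 h, as were 164 and 197 of all 573 long genes.

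**Figure D5:**
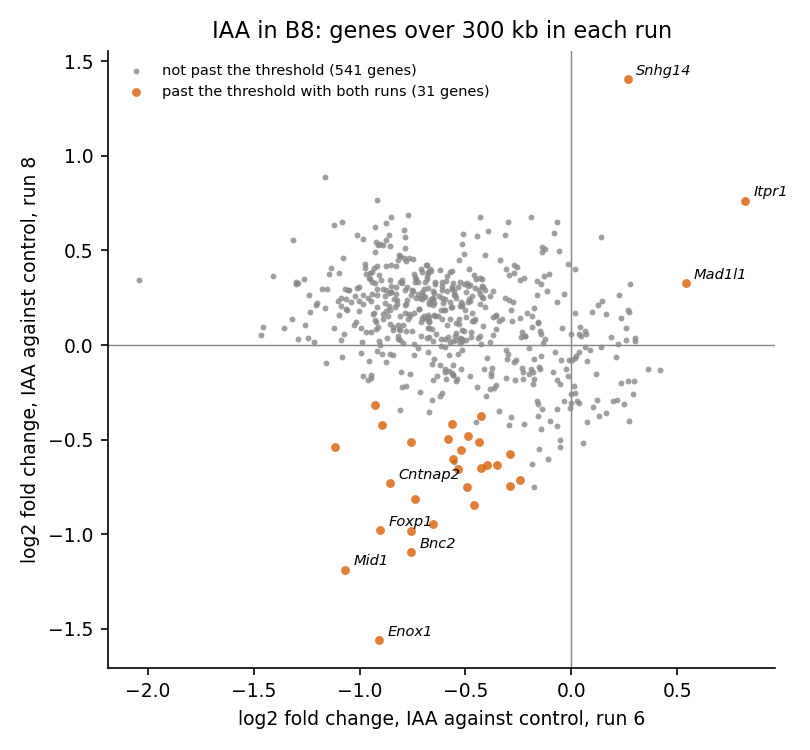
The log2 fold change of IAA against control in B8 is drawn for 572 genes over 300 kb, run 6 on the horizontal and run 8 on the vertical axis, with the 31 genes past the threshold in the fit of both runs in orange. Most of the other genes lie left of 0 in run 6 and above 0 in run 8. The 31 were chosen by the fit of these same libraries, so their like signs in both runs are no independent observation.

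Control B8 set against control C64 of run 2 gave 0 of 573 past the threshold, with 0% of 14622 genes in either direction, 38 long genes at an unadjusted p under 0.05 (6.63%, beside 5.9% of all genes), each higher in B8, and 0 by the likelihood-ratio test and DESeq2 (0.144% and 0.109% of all genes). With the B8 controls of run 6 only, 126 long genes were higher and 2 lower, beside 1.6% and 1.91% of all genes, and with those of run 8 only 50 and 6, beside 3.74% and 1.49%. Without control 2 of run 6, 0 passed and 47 had an unadjusted p under 0.05 (9.88% of all genes), 44 of them higher. Cell line, run and depth cannot be told apart in it. The median of the set was 0.55 against -0.02 for genes of 10 to 50 kb. By level it was 1.05 for 20 genes under 0.05 RPKM, 0.56 for 180 between 0.1 and 0.2 RPKM and 0.18 for 91 over 0.5 RPKM. Without control 2 of run 6 the median was 0.16, and those levels gave 0.3, 0.11 and 0.24, so the order by level rested on that library. The C64 controls of run 2 enter both the levels and this change. With the run 8 controls alone the difference between the classes was 0.09, with those of run 6 alone 0.99, and without control 2 of run 6 it was 0.2. Mei4, a meiotic break factor, Samd12 and Hs3st4 had the smallest p among the higher genes (0.94, 0.76 and 1.1), and Fbxl17, Mcc and Adk among the lower ones (-0.57, -0.41 and -0.39), with adjusted p between 0.803 and 0.878.

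A single IAA change fitted over all 6 contexts (C64 in runs 2 and 3, heat shock, RA and B8 in runs 6 and 8) called 1 of 573 long genes, which fell, beside 0.0931% of 17179 genes higher and 0.704% lower. It was Macf1, with -0.36 ± 0.07 (SE, adjusted p = 0.00951). Its controls in C64 and its fall in B8 are given above, and its start, printed above, holds no TATAAA within its window. With the blocks of runs 2 and 3 added, 14 fell and 0 rose, where 0.649% of 17873 genes rose and 3.19% fell. Dock1 (-0.28), Nfib (-0.28), Col4a6 (-0.38), Zfp407 (-0.37), Babam2 (-0.26), Sh3gl2 (-0.28), Xrcc4 (-0.26), Ranbp17 (-0.29), Enox1 (-0.51), Bnc2 (-0.34), Foxp1 (-0.39), Tenm4 (-0.25) and Etl4 (-0.3) were the others. Of these 14, 12 lay above the Olfr limit. The B8 libraries took part in this fit, and 10 of the 14 had passed in B8 with IAA.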

How the data were processed

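The authors aligned the CUT&Tag reads to mm10 (GRCm38) with Bowtie2, kept PCR duplicates, drew equal read numbers within a run, and counted reads over whole genes with featureCounts without regard to strand. Tool versions are not given in the sources used here. Reads over several genes were not assigned, so a long gene that holds others is counted only where it lies alone. The deposited values are raw counts with each gene's length, and the TATA-gene list of the authors was used as a list of names. Counts were tested with edgeR 4.0.16 (R 4.3.3): TMM scaling, a low-count filter (filterByExpr, min.count 20), quasi-likelihood F tests and Benjamini-Hochberg adjustment over all genes tested, with a threshold of 0.05. The likelihood-ratio test, DESeq2 1.42.0, other filters and length limits, and fits without each library were alternatives. Comparisons within C64 used only the libraries compared, B8 with IAA had the run as a term, and the fit over all contexts had a term for each context. A block for the replicate number or, in run 2, for the column set was the paired alternative. Deviations from the group means correlated between same-numbered libraries by 0.416 to 0.623 in run 3 and 0.101 to 0.483 between column sets of run 2, so both were treated as pairs, whereas B8 runs 6 and 8 gave -0.0373 and 0.00172. TMM sets the typical gene to no change, so a change shared by all genes is not seen. Levels are RPKM or CPM on 1 TMM scale over the 24 libraries. Errors are standard errors of the log2 fold change. The genes and lists were chosen with earlier results of these data known. Named genes are those past the threshold (up to 10 a direction) or, where under 3 passed, the 3 smallest p in each direction, the 5 longest, the 10 highest and those at the length limit. Genes called only with a block were picked after their values were seen. All sample columns were used (0 left out), and the tests were tried on simulated data first. 1 gene that met these rules is not reported here.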

Additional observations from a re-analysis of the deposited data

Results flagged for a closer look

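Of 58 values checked within groups of 4 libraries, 4 held a library far from the other 3 (a gap past Dixon's 95% limit), where chance alone gives about 1 in 20. The first 3 came from B8 control 2 of run 6, which also had the lowest depth of all libraries. There the genes over 300 kb took 14.1% of the reads against 9.06 to 9.6% in the other B8 controls, Camk1d (a calcium-dependent kinase) had 467 CPM against 295 to 317 CPM, and Hs3st4 (a heparan sulfate sulfotransferase) had 96.3 CPM against 46.3 to 54.7 CPM. The fourth was Mid1 in B8 with IAA, where library 2 of run 6 had 332 CPM and the other 3 had 374 to 377 CPM. Both B8 IAA values of Mid1 in run 6 still lay far below every control.

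The IAA change of Mid1 differed between B8 and C64 by -1.18 on the log2 scale in a direct test of the difference (SE 0.2, edgeR quasi-likelihood test, adjusted p = 0.023). It fell in 4 of 4 B8 libraries with IAA relative to every B8 control, and the call was lost when any library other than B8 control 2 of run 6 was left out. B8 and C64 were sequenced in different runs and to different depths, which cannot be told apart from the cell line.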

How the results depend on the processing

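Among the named genes, no value past the threshold changed sign under the alternatives run, and long genes not named were not checked in this way. Of the settings tried for single named genes 941 kept their side of the threshold, 166 moved past it and 125 fell short of it. Counts of genes over 300 kb past the threshold did move. The B8 libraries, whose numbers did not deviate together, were paired in the same way for comparison. Pairing by replicate number gave 10 genes for IAA at 16 h, 121 for RA, 18 for RA with IAA, 7 for IAA under RA, 15 for IAA in B8 and 14 over all contexts. In B8 with IAA, that pairing called 1.32% of all genes higher and 1.79% lower. With the column sets of run 2 as the block there were 8 for heat shock, 2 for heat shock with IAA and 1 for IAA under heat shock. The likelihood-ratio test called 2, 1, 9, 9 and 3 for heat shock, heat shock with IAA, RA, RA with IAA and all contexts. Beside these stood 4.85%, 4.64%, 0.807%, 0.439% and 1.42% of all genes. For the difference between B8 and C64 it called 4 long genes, among 51 of 15338 genes. DESeq2 called 2, 1, 10, 10 and 8 in the same comparisons, beside 3.42%, 2.71%, 0.532%, 0.409% and 1.94% of all genes. It called 31 for RA with the block (2.59% of all genes). With no filter on low counts there were more for heat shock with IAA, RA and RA with IAA than in the main fits. The shares of all genes in those fits are not given here. A limit of 200 kb gave 3 for heat shock, 59 for IAA in B8, 7 over all contexts and 213 for RA with the block. A limit of 500 kb gave 10 for IAA in B8, 0 over all contexts and 50 for RA with the block. By construction these sets hold more or fewer genes, and the fits are those whose shares of all genes are given above. Genes that overlap no other gene gave 62 for RA with the block. For IAA in B8, run 6 alone gave 0 calls and a median difference from the genes of 10 to 50 kb of -0.61. Run 8 alone gave 129 calls, and a fit with no run term gave fewer than the main fit. B8 controls of run 6 only gave 128 calls (3.51% of all genes) and 0.99 against C64, and those of run 8 only 56 (5.24%) and 0.086. Among genes above the Olfr limit the median difference was -0.17 for heat shock, -0.16 for heat shock with IAA and 0.033 for IAA under heat shock. The cause of these moves was not tested.

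Without 1 library at a time the calls ranged from 0 to 36 for heat shock, 0 to 33 for heat shock with IAA, 1 to 5 for RA, 0 to 28 for RA with IAA, 0 to 1 for IAA under RA, 12 to 75 for IAA in B8, 1 to 2 over all contexts and 0 to 8 for the difference between B8 and C64. The median difference kept its sign for IAA at 6 h (0.02 to 0.14), IAA under heat shock (0.077 to 0.30) and B8 against C64 (0.20 to 0.73). It changed sign for IAA at 16 h (-0.17 to 0.31), heat shock (-0.10 to 0.01), heat shock with IAA (-0.02 to 0.14), RA (-0.16 to 0.50), RA with IAA (-0.49 to 0.51), IAA under RA (-0.59 to 0.35), IAA in B8 (-0.35 to 0.07) and all contexts (-0.08 to 0.06). With 2 libraries a group, the lone library left in a group is assumed to vary like the others. At these depths, 305 of the 576 genes lie below 2 times the Olfr median.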
